A study of Mus musculus with 48 samples.

Results

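The genes described here are 35 genes of fat cells and lipid storage, chosen by symbol in the gene count table, and all 35 were found among its 32544 gene rows. They were read in the tibial metaphysis, the end of the shin bone next to the growth plate, with its marrow, from male mice aged 19 weeks. The mice belonged to 8 inbred strains: the wild-derived WSB/EiJ, PWK/PhJ and CAST/EiJ, the obesity-prone NZO/HlLtJ, the diabetes-prone NOD/ShiLtJ, and C57BL/6J, A/J and 129S1/SvImJ. Each mouse wore a cast on its left hindlimb (the immobilized limb) for 3 weeks and its right hindlimb was the control, with 3 mice per strain and 48 libraries in 16 groups. The controls were the opposite limbs of cast mice, so no group came from mice without a cast, and body side and cast cannot be told apart. The control libraries of A/J mice 2 and 5 held 2335 and 50 counts and were left out, so 46 libraries remained, and A/J had 1 control library and 1 mouse with both limbs.

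White fat cells store triglyceride in a single large droplet coated by perilipin 1, and they release it again through a chain of lipases. The transcription factors PPARγ and C/EBPα switch on the genes of droplet coating, fatty acid uptake and synthesis together, and they also drive secreted proteins such as adiponectin, leptin and adipsin. In long bones these cells lie within the marrow, where stromal cells that carry the leptin receptor are the source of both fat cells and osteoblasts. The metaphyseal sample also holds bone, blood-forming cells and, at its surface, whatever skeletal muscle was left on the bone.

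The 250 bases upstream of the transcription start are shown for 4 members on which the results turn: Plin1, whose limb differences most other members followed, Retn, whose WSB/EiJ libraries lay above those of all other strains in each limb, Cfd, an abundant secreted protein that was higher in WSB/EiJ by test, and Lep, whose window held a C/EBP palindrome (in capitals). The sequences are RefSeq's, on GRCm38.p6, read 5′ to 3′ on the strand of the gene. Plin1 is shown from chr7:79732777-79733026 (minus strand), Cfd from chr10:79890603-79890852 (plus strand), Retn from chr8:3655520-3655769 (plus strand) and Lep from chr6:29059971-29060220 (plus strand).
Plin1: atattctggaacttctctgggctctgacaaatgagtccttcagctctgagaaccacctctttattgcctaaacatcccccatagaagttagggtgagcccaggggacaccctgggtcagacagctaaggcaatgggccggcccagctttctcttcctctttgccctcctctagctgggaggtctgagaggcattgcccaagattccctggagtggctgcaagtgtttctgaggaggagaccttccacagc
Cfd: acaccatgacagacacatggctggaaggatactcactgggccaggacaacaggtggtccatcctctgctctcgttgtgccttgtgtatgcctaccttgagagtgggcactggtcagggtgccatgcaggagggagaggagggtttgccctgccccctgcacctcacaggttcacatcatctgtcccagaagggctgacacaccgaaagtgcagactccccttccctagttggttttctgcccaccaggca
Retn: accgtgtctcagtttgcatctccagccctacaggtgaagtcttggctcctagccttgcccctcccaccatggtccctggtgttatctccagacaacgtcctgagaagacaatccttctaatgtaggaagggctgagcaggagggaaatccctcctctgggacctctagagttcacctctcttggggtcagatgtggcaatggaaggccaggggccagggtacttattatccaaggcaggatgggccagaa
Lep: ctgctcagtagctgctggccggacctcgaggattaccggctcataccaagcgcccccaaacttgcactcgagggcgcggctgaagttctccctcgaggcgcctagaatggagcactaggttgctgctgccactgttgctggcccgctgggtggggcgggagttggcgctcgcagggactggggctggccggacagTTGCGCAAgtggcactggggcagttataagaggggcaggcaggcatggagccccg
RefSeq promoters were found for 23 of the 35 genes, 28 promoters in all, and were searched on both strands in these 250 bases. The C/EBP palindrome TTGCGCAA was present in the Lep promoter and in 0.164% of all 32841 mouse promoters. The sterol response element TCACNCCAC was present upstream of Acsl1 (1.05% of all promoters) and the E-box CACGTG upstream of Lipe (6.02% of all). The PPAR direct repeat (DR1) was present in 0 of the 28 promoters and in 0.0335% of all, and the CCAAT box in 32.1% of the 28 and 33.9% of all.

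Total counts in the 46 libraries ran from 5253408 to 14744056 (median 7593532.5). Levels are given as CPM (counts scaled to a common library total), scaled between libraries by the trimmed mean of M values (TMM), and values are listed in the same order of mice in both limbs. Compared per kilobase of merged exon length over the 46 libraries, the highest median levels were those of Scd1 (93.0 CPM per kb), Cfd (91.5), Fabp4 (65.2), Adipoq (63.1) and Cd36 (35.5), and the lowest were Cidea (0.246), Adrb3 (0.151) and Ucp1 (0). The defining white fat cell genes Adipoq, Plin1, Cidec, Cfd, Retn and Lep were read in every one of the 46 libraries. Ucp1, the uncoupling protein of brown fat, had 0 counts in 32 libraries and at most 2 counts in any, while a count of 0 in a library allows up to 3 counts. Ucp1 did not pass the filter on low counts in any fit, and Adrb3 did not pass it in the immobilized limbs, so 34 members were tested in the limb and control fits and 33 in the immobilized fit. In bulk tissue, fewer fat cells, less RNA per fat cell and RNA of these genes from other cells of the sample cannot be told apart.

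The strains differed in most of these genes. In control limbs, 27 of 34 members differed among the 8 strains (edgeR quasi-likelihood test, Benjamini-Hochberg adjusted p below 0.05), against 40.6% of all 16493 genes tested. In immobilized limbs, which are other libraries of the same mice, 29 of 33 members differed, against 50.3% of 15478 genes. WSB/EiJ had the highest strain mean for 17 of 34 members in control limbs and for 25 of 34 in immobilized limbs. The share of all genes with their highest mean in WSB/EiJ was not counted, and these means include a WSB/EiJ mouse with high levels, described below. Members that did not pass in control limbs were Pparg, Acly, Agpat2, Acsl1, Acaca, Dgat2 and Adrb3, with adjusted p from 0.0529 for Adrb3 to 0.34 for Pparg.

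**Figure D1:**
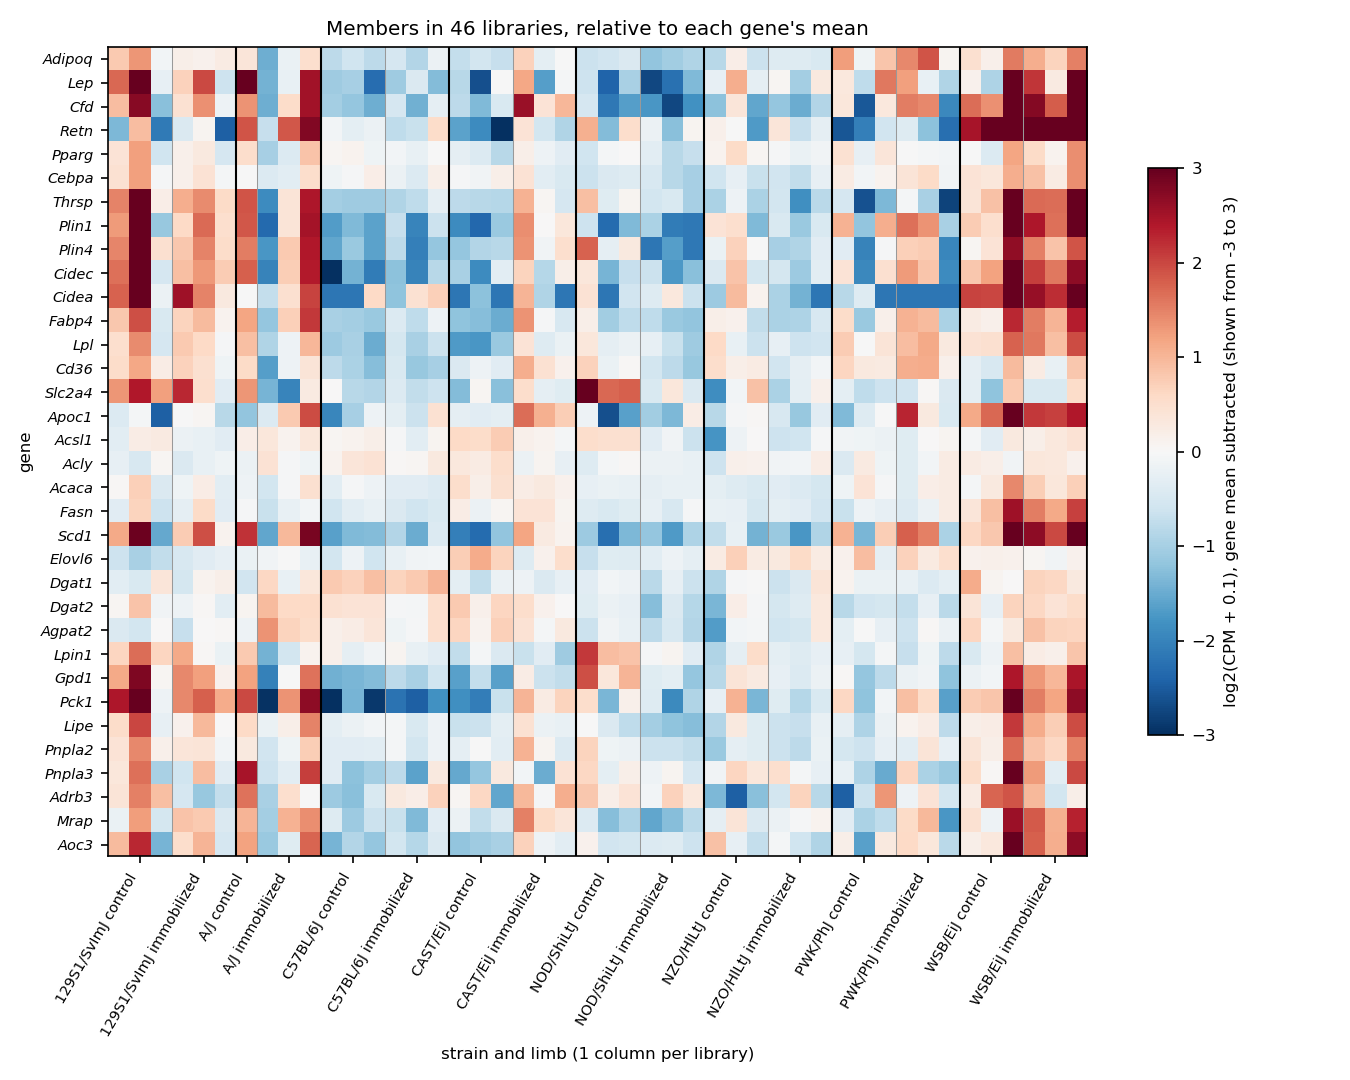
Heat map of 34 members (rows, by role; Ucp1 left out) in 46 libraries (columns, by strain and limb), as log2(CPM + 0.1) with each gene's mean subtracted. The WSB/EiJ columns are high for most rows, and single high columns stand out among 129S1/SvImJ controls (mouse 3) and A/J immobilized limbs (mouse 5).

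Against the mean of the 7 other strains, 16 of 34 members were higher in WSB/EiJ control limbs and none was lower, where 6.54% of all genes passed and 4.2% were called higher. The members' median log2 fold change was 1.20, against 0.02 over all genes. In WSB/EiJ immobilized limbs, 27 of 33 members were higher and none lower, where 8.05% of all genes passed and 5.21% were called higher, with a median of 1.60 against 0.01 over all genes. The 3 WSB/EiJ mice were not alike: in control limbs the 35 genes took 108150 counts in mouse 5, against 26842 in mouse 2 and 26550 in mouse 4. Without mouse 5, the control count fell from 16 to 3 members (Apoc1, Fasn and Retn) and the immobilized count from 27 to 11.

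Among the secreted proteins, Retn encodes resistin, a hormone made by white fat in mice. Its CPM in WSB/EiJ control limbs was 13.4, 19.8 and 64.7 in mice 2, 4 and 5, and its immobilized values were 28.6, 22.3 and 35.3. All 3 WSB/EiJ libraries lay above all 19 other control libraries (lowest 0.169, median 1.54, highest 8.86) and above all 21 other immobilized libraries (highest 16.6). Retn was 4.12 ± 0.50 (SE) log2 units higher in WSB/EiJ control limbs (edgeR adjusted p = 3.2e-05) and 3.77 ± 0.37 higher in immobilized limbs (edgeR adjusted p = 3.95e-07). At the other end, CAST/EiJ control limbs read 0.695, 0.551 and 0.169 CPM, and Retn was lower there than in the other strains (log2 difference of -2.85 ± 0.80, edgeR adjusted p = 0.0172).

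Cfd encodes adipsin, the complement factor D that fat cells secrete. WSB/EiJ control limbs read 344, 282 and 1478 CPM and immobilized limbs 734, 378 and 1100 CPM. The control values of mice 2 and 4 lay inside the range of the other strains, whose control libraries ran from 18.3 to 716 (median 53.6), while mouse 5 lay above it. The difference from the other strains was 2.83 ± 0.56 log2 units in control limbs (edgeR adjusted p = 0.0047) and 2.68 ± 0.50 in immobilized limbs (edgeR adjusted p = 0.00129). Without mouse 5 the control call ended (edgeR adjusted p = 0.196).

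Adipoq, the gene of adiponectin, had a narrower range, from 34.9 to 362 CPM with a median of 87.1 over the 46 libraries. Its highest strain mean was that of WSB/EiJ in control limbs and of PWK/PhJ in immobilized limbs. PWK/PhJ immobilized limbs read 263, 362 and 104 CPM, and WSB/EiJ immobilized limbs 207, 154 and 277 CPM, both overlapping the other strains. Adipoq was 1.38 ± 0.27 log2 units higher in PWK/PhJ (edgeR adjusted p = 0.000872) and 1.22 ± 0.27 higher in WSB/EiJ immobilized limbs (edgeR adjusted p = 0.00625). In NOD/ShiLtJ immobilized limbs, at 42.8, 47.4 and 51.9 CPM, it was lower (log2 difference of -1.29 ± 0.34, edgeR adjusted p = 0.0126).

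Lep, the gene of leptin, was the scarcest secreted protein of the group. Its CPM ran from 0.0816 to 21 over the 46 libraries, with a median of 0.91. WSB/EiJ control limbs read 1.22, 0.531 and 21, so 1 of 3 libraries stood above all other strains there, and the difference did not pass in control limbs (edgeR adjusted p = 0.0739). In immobilized limbs it read 5.22, 1.34 and 13.3 and was 2.71 ± 0.58 log2 units higher than in the other strains (edgeR adjusted p = 0.00469), a call that ended when mouse 5 was left out (edgeR adjusted p = 0.213).

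Pparg, the master regulator of fat cell formation, had a narrow range. Its CPM ran from 9.39 to 49.7 with a median of 18.2, and control limbs did not differ among strains (edgeR adjusted p = 0.34). WSB/EiJ immobilized limbs read 27.9, 20.2 and 49.7 CPM, 0.95 ± 0.24 log2 units above the other strains (edgeR adjusted p = 0.0175). Thrsp, a nuclear protein of lipogenic tissues, was more spread out, with 10.5, 14.9 and 91.8 CPM in WSB/EiJ control limbs, all above the median of 4.63 in the other strains. Only mouse 5 lay above their highest value of 66.2. It was 2.21 ± 0.48 log2 units higher in WSB/EiJ control limbs (edgeR adjusted p = 0.00874) and 2.44 ± 0.43 higher in immobilized limbs (edgeR adjusted p = 0.000782). Cebpa, a partner of Pparg, ranged from 30.9 to 164 CPM and was higher in WSB/EiJ control limbs by 0.67 ± 0.18 log2 units (edgeR adjusted p = 0.0345) and in immobilized limbs by 1.07 ± 0.21 (edgeR adjusted p = 0.00177).

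Among the droplet proteins too, WSB/EiJ mouse 5 was above mice 2 and 4. Plin1, which coats the droplet and gates lipase access, read 32.2, 26.8 and 216 CPM in WSB/EiJ control limbs and 102, 59.8 and 173 CPM in immobilized limbs. In C57BL/6J control limbs it read 5.79, 7.43 and 6.13 CPM, and in CAST/EiJ control limbs 4.98, 3.58 and 8.6 CPM. The other strains' control libraries ran from 3.58 to 159.8 CPM (median 8.51), the highest being 129S1/SvImJ mouse 3. Plin1 was 2.27 ± 0.58 log2 units higher in WSB/EiJ control limbs (edgeR adjusted p = 0.0264) and 2.47 ± 0.48 higher in immobilized limbs (edgeR adjusted p = 0.00201).

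Cidec, a droplet fusion protein, read 22.7, 29.7 and 139 CPM in WSB/EiJ control limbs against 1.25, 4.78 and 2.92 CPM in C57BL/6J, with no overlap between those strains. It was higher than in the other strains by 2.18 ± 0.58 log2 units in WSB/EiJ (edgeR adjusted p = 0.0301) and by 2.24 ± 0.57 in 129S1/SvImJ (edgeR adjusted p = 0.028), whose controls read 40.5, 146 and 9.12 CPM. Cidea, a related droplet protein also high in brown fat, had 0 counts in 11 libraries. All 3 PWK/PhJ immobilized libraries were at 0 counts. Against a limit of 3 counts over the 3 libraries together, the level was at least 6.71-fold lower than the mean of the other strains. That limit was 0.158 CPM and that mean 1.06 CPM, which includes WSB/EiJ at 4.12 CPM. The median of the strain means in immobilized limbs was 0.37 CPM, nearer to the limit. WSB/EiJ held 13, 13 and 66 counts of Cidea in control limbs and 22, 15 and 60 in immobilized limbs.

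Scd1 and Fasn led the synthesis genes. Scd1, the stearoyl-CoA desaturase, was the most abundant member and ranged from 135 to 8398 CPM. WSB/EiJ control limbs read 1038, 1167 and 8398 CPM and immobilized limbs 4317, 2652 and 6958 CPM, while C57BL/6J control limbs read 216, 268 and 272 CPM, below all of them. Scd1 was 2.52 ± 0.58 log2 units higher in WSB/EiJ control limbs (edgeR adjusted p = 0.0128) and 2.63 ± 0.46 higher in immobilized limbs (edgeR adjusted p = 0.000607).

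Fasn, the fatty acid synthase, had a narrow range outside WSB/EiJ. The 21 immobilized libraries of the other strains lay between 56.9 and 136 CPM (median 75.8), and the 3 WSB/EiJ libraries, at 264, 201 and 377 CPM, lay above all of them. In control limbs WSB/EiJ read 117, 170.1 and 527 CPM, and 2 of the 3 lay above the other strains' highest value of 144. The difference was 1.77 ± 0.28 log2 units in control limbs (edgeR adjusted p = 0.00052) and 1.82 ± 0.16 in immobilized limbs (edgeR adjusted p = 6.46e-08). Acaca, the carboxylase that feeds Fasn, ranged from 40.5 to 162 CPM and was higher in WSB/EiJ immobilized limbs by 0.75 ± 0.15 log2 units (edgeR adjusted p = 0.0018), and Acly, which makes cytosolic acetyl-CoA, ranged from 103 to 229 CPM and did not pass in either limb.

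Elovl6, the elongase that extends palmitate, had another order of strains. CAST/EiJ control limbs read 21.9, 28.4 and 20.8 CPM, against a median of 11.3 in the other strains, and 129S1/SvImJ control limbs read 8.45, 6.64 and 7.75 CPM. Elovl6 was 0.99 ± 0.18 log2 units higher in CAST/EiJ (edgeR adjusted p = 0.000882) and lower in 129S1/SvImJ (log2 difference of -0.86 ± 0.22, edgeR adjusted p = 0.0244). WSB/EiJ control values of 14.3, 14.6 and 14.3 CPM lay inside the range of the other strains.

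Lpl, the lipoprotein lipase that frees fatty acids from circulating triglyceride, read 68.9, 66.7 and 103 CPM in CAST/EiJ control limbs and 105, 114 and 79.6 CPM in C57BL/6J control limbs, the lowest of all control libraries. WSB/EiJ control limbs read 303, 309 and 762 CPM, with no overlap with either strain. The log2 difference from the other strains was -1.76 ± 0.38 in CAST/EiJ (edgeR adjusted p = 0.00348), -1.38 ± 0.37 in C57BL/6J (edgeR adjusted p = 0.0288) and 1.12 ± 0.31 in WSB/EiJ (edgeR adjusted p = 0.0363).

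Fabp4, the fatty acid carrier of the fat cell cytosol, read 134, 127 and 111 CPM in CAST/EiJ control limbs and was lower there than in the other strains (edgeR log2 change of -1.60 ± 0.51, adjusted p = 0.0322). Its WSB/EiJ control values were 369, 344 and 1489 CPM and its immobilized values 906, 629 and 1591 CPM, which passed in immobilized limbs (1.68 ± 0.40 log2 units, edgeR adjusted p = 0.0095) and not in control limbs. Cd36, the fatty acid translocase, was lowest in C57BL/6J, whose control values of 69.5, 61.8 and 49.7 CPM all lay below the lowest of the 19 other control libraries (85.9), with a log2 difference of -1.30 ± 0.27 (edgeR adjusted p = 0.00643). WSB/EiJ control values of 100.4, 85.9 and 230.3 CPM lay inside the range of the other strains.

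Apoc1, an apolipoprotein of lipoprotein particles also made by macrophages, read 4.73, 7.17 and 17.8 CPM in WSB/EiJ control limbs. All 3 lay above the 19 other control libraries, which reached 2.18 CPM, and the difference was 2.94 ± 0.43 log2 units (edgeR adjusted p = 0.000237). In immobilized limbs WSB/EiJ read 9.48, 9.1 and 11.6 CPM, of which 1 lay above every other library, since PWK/PhJ mouse 3 read 10.7 CPM.

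Slc2a4 and Lpin1 had their highest control means in NOD/ShiLtJ. Slc2a4 encodes GLUT4, the insulin-responsive glucose transporter of fat and skeletal muscle, and its NOD/ShiLtJ control values were 287, 91.4 and 96.7 CPM against a median of 22.5 in the other strains. Lpin1, a phosphatidate phosphatase of triglyceride synthesis that is abundant in muscle, read 99.8, 43.8 and 41.5 CPM there against a median of 21.2. Both overlapped 129S1/SvImJ controls, and both were higher than in the other strains, by 2.34 ± 0.42 (edgeR adjusted p = 0.00102) and 1.26 ± 0.30 log2 units (edgeR adjusted p = 0.00878).

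The summed CPM of a list of 20 skeletal muscle genes, none at 0, differed between groups. It ran from 18638 to 83382 in NOD/ShiLtJ control limbs and from 11634 to 29722 in 129S1/SvImJ control limbs. In WSB/EiJ it ran from 322 to 856 in control limbs and from 66.8 to 139 in immobilized limbs. C57BL/6J control limbs, at 99.6 to 1676, overlapped those of WSB/EiJ. Against the other strains, 4 of 34 members were positive in C57BL/6J control limbs and 31 of 34 in WSB/EiJ control limbs. Among groups with high muscle levels, 9 of 34 were positive in NOD/ShiLtJ and 26 of 34 in 129S1/SvImJ control limbs. The 1 A/J control library, at 16613 summed CPM of the muscle list, lay within the 129S1/SvImJ range. The share of all genes with a positive difference was not counted, and the part of muscle in these differences was not tested. With the list's level as a covariate, 0 members passed in NOD/ShiLtJ control limbs, 0 of the 8 in 129S1/SvImJ control limbs and 5 of the 16 in WSB/EiJ control limbs (Apoc1, Cidea, Fasn, Retn and Thrsp), while 18 of the 27 still passed in WSB/EiJ immobilized limbs, where Lpin1 and Slc2a4 passed only with the covariate. Muscle level and strain largely went together, so this covariate cannot tell them apart, for calls lost or for calls kept.

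Triglyceride synthesis was split by gene. Pck1, which supplies glycerol phosphate in fat cells, read 10.4, 11 and 67.7 CPM in WSB/EiJ control limbs and 0.47, 2.27 and 0.73 CPM in C57BL/6J, with no overlap. Its difference was 2.11 ± 0.60 log2 units in WSB/EiJ (edgeR adjusted p = 0.0435) and 2.68 ± 0.58 in 129S1/SvImJ (edgeR adjusted p = 0.011), whose values were 33, 85.4 and 5.47 CPM. Gpd1, the glycerol phosphate dehydrogenase, ran from 9.22 to 264 CPM with a median of 33.9, and in control limbs it was higher in 129S1/SvImJ (83.5, 264 and 39.5 CPM, 1.69 ± 0.47 log2 units, edgeR adjusted p = 0.0412) and lower in CAST/EiJ (12.3, 23 and 12.3 CPM, -1.77 ± 0.61 log2 units, edgeR adjusted p = 0.0466).

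Dgat1, one of the enzymes of the last acylation step, had its highest mean in C57BL/6J. Its control values of 129, 120.4 and 139.8 CPM exceeded all other control libraries except WSB/EiJ mouse 2 at 159, and it was 0.96 ± 0.21 log2 units higher (edgeR adjusted p = 0.00804) and, in immobilized limbs, 0.90 ± 0.17 higher (edgeR adjusted p = 0.00185). Agpat2, the acyltransferase of the second step, was higher in A/J immobilized limbs, at 178, 112 and 104 CPM, by 0.91 ± 0.18 log2 units (edgeR adjusted p = 0.00243). Dgat2, the other acylation enzyme, ranged from 14.4 to 72.5 CPM and was lower in PWK/PhJ control limbs (edgeR log2 change of -0.83 ± 0.27, adjusted p = 0.0415) and in PWK/PhJ immobilized limbs (edgeR log2 change of -0.66 ± 0.19, adjusted p = 0.0193).

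The remaining members followed the WSB/EiJ pattern in part. Pnpla2, the first lipase of triglyceride breakdown, ran from 35.3 to 246 CPM, and Lipe, the hormone-sensitive lipase, from 17.2 to 183 CPM, each with its highest strain mean in WSB/EiJ in both limbs. Aoc3, an amine oxidase of the fat cell surface, ran from 6.23 to 157 CPM, and Mrap, the accessory protein of the melanocortin 2 receptor, from 1.63 to 34.3 CPM, again with WSB/EiJ highest in both limbs. Pnpla3, a lipase relative, was highest in the control library of WSB/EiJ mouse 5, at 20.6 CPM, and next in the A/J control library, at 12.5 CPM. Adrb3, the β3 adrenergic receptor, reached at most 1.91 CPM, and Acsl1, an acyl-CoA synthetase, ran from 44.2 to 258 CPM, with its highest control mean in CAST/EiJ.

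**Figure D2:**
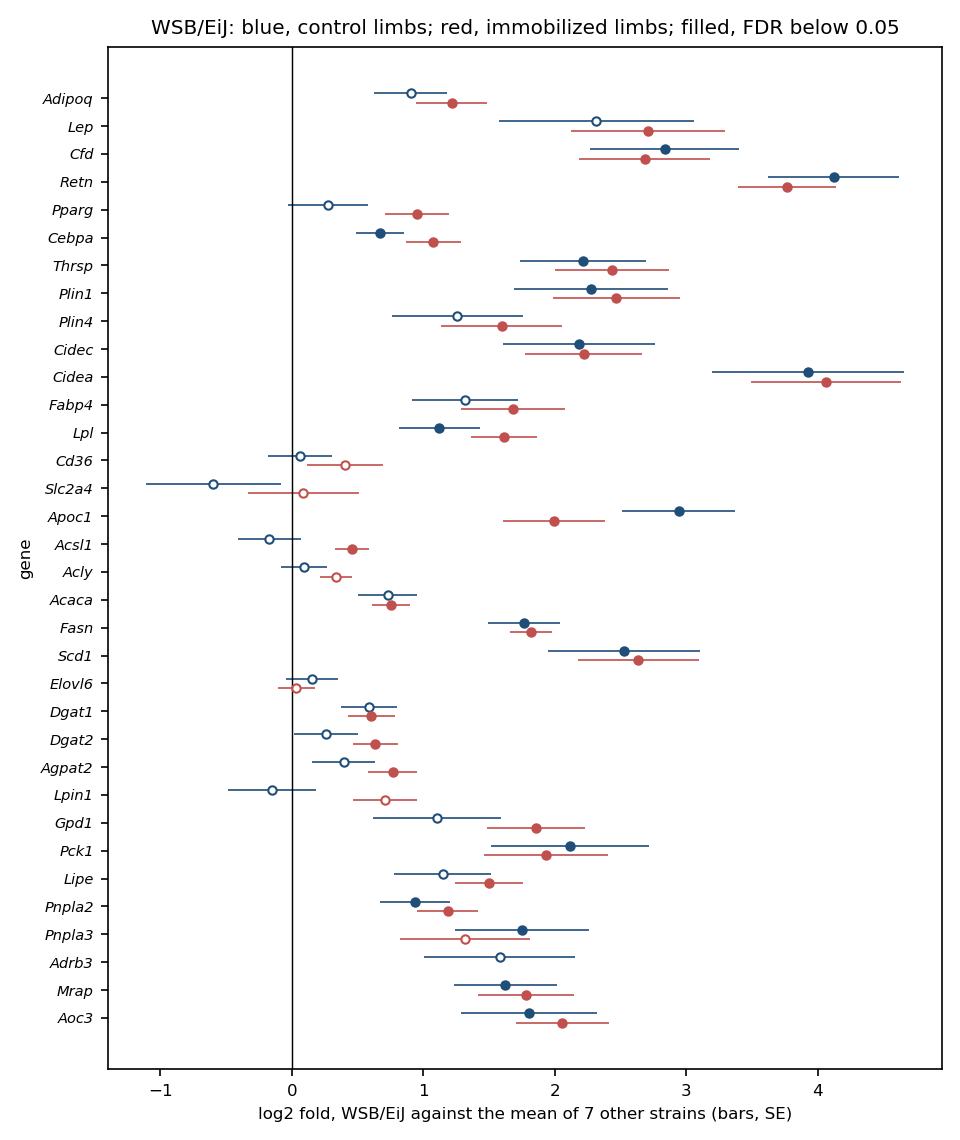
Log2 fold change of each member in WSB/EiJ against the mean of the 7 other strains (points; bars are standard errors), for control limbs (blue, 22 libraries) and immobilized limbs (red, 24 libraries); filled points passed an adjusted p of 0.05. Retn and Cidea lie farthest right, 16 blue and 27 red points are filled, and Elovl6 lies near 0.

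In NOD/ShiLtJ immobilized limbs the group was low: 14 of 33 members were lower than in the other strains and 0 were higher, where 19.6% of all genes passed and 6.93% were called lower, with a members' median log2 fold change of -0.90. Plin4, a droplet protein also found in muscle, read 9.3, 13.4 and 9.54 CPM there, of which 2 lay below all 21 other immobilized libraries. Lipe was below all 21 in all 3 NOD/ShiLtJ mice and was lower (log2 difference of -1.41 ± 0.34, edgeR adjusted p = 0.0073). Cfd read 32.3, 16.3 and 30.7 CPM, a log2 difference of -2.83 ± 0.78 (edgeR adjusted p = 0.0171). Without mouse 4, 5 or 6 the count fell from 14 to 4, 6 and 1. Summed osteoblast markers ran from 57782 to 267192 CPM in these 3 libraries, against 14578 to 65469 CPM in WSB/EiJ immobilized limbs. They ran from 82455 to 185368 CPM in CAST/EiJ immobilized limbs, where 0 members passed against 18.6% of all genes, and 20 of 33 were positive. The part of osteoblasts in the result was not tested.

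The remaining groups had few calls. In immobilized limbs, 5 of 33 members passed in PWK/PhJ, 3 higher (Adipoq, Cd36 and Elovl6) and 2 lower (Cidea and Dgat2), where 18.7% of all genes passed (10.7% higher and 8.02% lower). A/J had Agpat2, Dgat2, Pck1 and Retn higher, where 13.7% of all genes passed and 9.22% were higher. 129S1/SvImJ had Cidea and Slc2a4 higher, where 9.9% passed and 6.76% were higher. C57BL/6J had Dgat1 higher and Pck1 lower, where 7.75% passed (5.31% higher and 2.44% lower). CAST/EiJ had 0 members by edgeR, where 18.6% of all genes passed, with 2 CAST/EiJ members at an unadjusted p below 0.05 and 0 by DESeq2. In control limbs, Slc2a4 and Lpin1 were higher in NOD/ShiLtJ (10.8% of all genes passed and 9.15% were higher) and Dgat2 was lower in PWK/PhJ (16.7% passed and 6.55% were lower). 129S1/SvImJ control limbs had 7 members higher (Cebpa, Cidea, Cidec, Gpd1, Pck1, Plin4 and Thrsp) and Elovl6 lower, where 6.49% of all genes were called (5.04% higher and 1.45% lower). That count was 3 without mouse 2, 0 without mouse 3 and 19 without mouse 6, and mouse 3 held the high values, such as 364 CPM of Plin4 against 117 and 59.4 in mice 2 and 6. CAST/EiJ control limbs had 1 member higher (Elovl6) and 4 lower (Fabp4, Gpd1, Lpl and Retn), where 22.7% of all genes were called (13.1% higher and 9.57% lower), and 2 to 3 members passed when a mouse was left out. C57BL/6J had Dgat1 higher and Cd36 and Lpl lower in control limbs, where 8.83% of all genes passed (5.83% higher and 3% lower), and 0 without mouse 6. NZO/HlLtJ had 0 in either limb by edgeR, where 4.61% and 6.81% of all genes passed, with 5 members at an unadjusted p below 0.05 in control limbs and 13 in immobilized limbs, and by DESeq2 1 and 5 members passed. The share of all genes at an unadjusted p below 0.05, or by DESeq2, is not given here or below. Such counts therefore have no like share beside them. The 1 A/J control library gave 0 calls by edgeR, with 5 members at an unadjusted p below 0.05, under the assumption that it varied like the other strains.

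**Figure D3:**
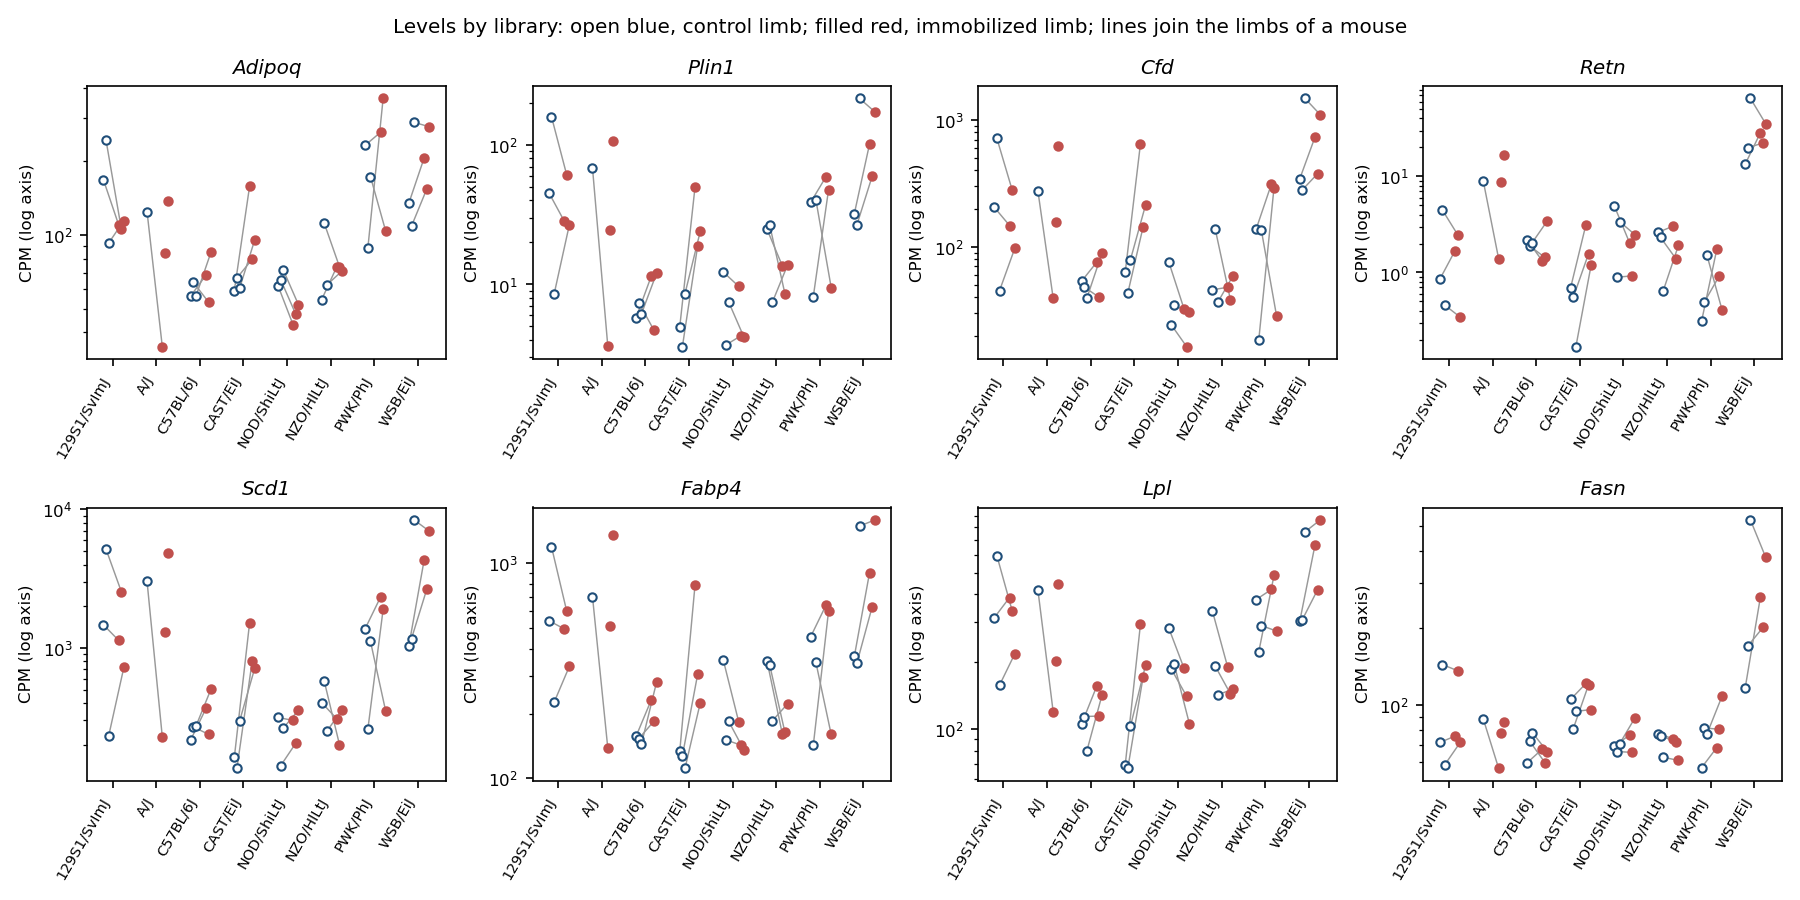
CPM on a log axis in each library for 8 members, by strain, with open blue points for control limbs, filled red points for immobilized limbs and lines joining the limbs of a mouse. CAST/EiJ lines rise in Plin1, Cfd, Scd1, Fabp4 and Lpl, and the WSB/EiJ points of Retn and of Fasn in immobilized limbs lie above those of all other strains.

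The cast moved few members in the same way across strains. Over the 8 strains, 2 of 34 members passed, both lower in the immobilized limb, where 7.43% of all 16882 genes passed and 2.86% were called lower. The members' median log2 change was -0.12, against 0.01 over all genes, and 9 members were at an unadjusted p below 0.05. The share of all genes at that unadjusted level was not counted. Lpin1 changed by -0.59 ± 0.14 log2 units (edgeR adjusted p = 0.0184) and was lower in 15 of 22 mice. Cd36 changed by -0.31 ± 0.09 (edgeR adjusted p = 0.0419) and was lower in 12 of 22 mice. The mean gives each strain the same weight, so the single A/J mouse counts as much as 3 mice elsewhere: without it, 0 members passed, and Cd36 also failed in 13 of the 22 fits that left out a mouse. The 20 muscle genes were lower in the immobilized limb of 15 of 22 mice, and with their level as a covariate 0 members passed. Adipoq (-0.13 ± 0.15), Plin1 (-0.17 ± 0.30), Cfd (-0.01 ± 0.32) and Fabp4 (-0.03 ± 0.18) had mean log2 changes smaller than their standard errors.

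**Figure D4:**
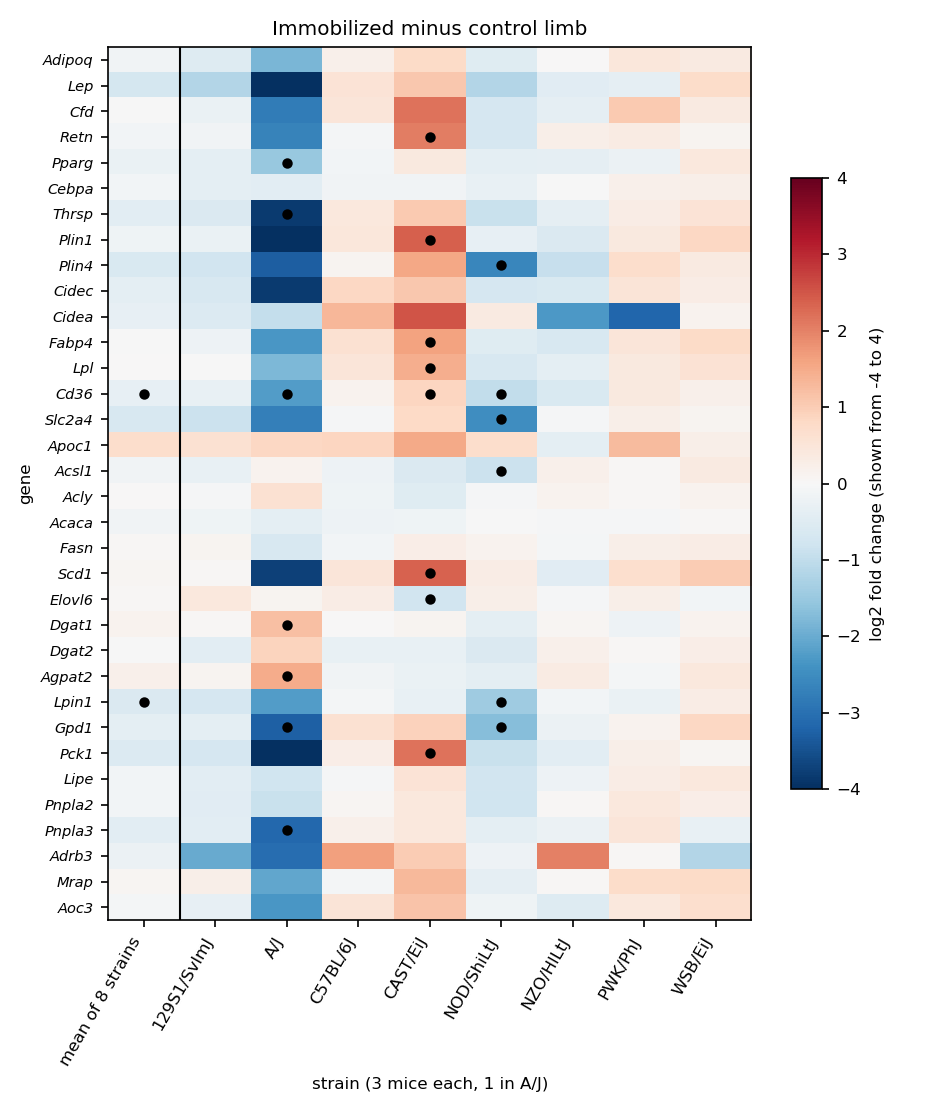
Log2 fold change of each of 34 members in the immobilized against the control limb, for the mean of the strains and for each strain (3 mice each, 1 in A/J); black dots mark an adjusted p below 0.05. CAST/EiJ is mostly red (26 of 34 members positive), NOD/ShiLtJ and A/J mostly blue (5 and 7 of 34 positive).

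CAST/EiJ mice had higher levels of a core of these genes in the immobilized limb. There 7 members rose (Cd36, Fabp4, Lpl, Pck1, Plin1, Retn and Scd1) and Elovl6 fell, where 13.9% of all genes passed (8.38% higher and 5.47% lower), and the members' median log2 change was 0.90 against -0.01 over all genes. Plin1 read 4.98, 3.58 and 8.6 CPM in the control limbs of mice 2, 3 and 4 and 49.9, 18.9 and 24 CPM in their immobilized limbs. Scd1 read 162, 135 and 296 CPM against 1515, 804 and 717. Every immobilized library lay above every control library for both genes, with log2 changes of 2.38 ± 0.75 for Plin1 (edgeR adjusted p = 0.045) and 2.37 ± 0.70 for Scd1 (edgeR adjusted p = 0.0319).

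Lpl gave the smallest p of the group in this strain. Its CAST/EiJ control limbs read 68.9, 66.7 and 103 CPM and its immobilized limbs 295, 171 and 194 CPM, a change of 1.45 ± 0.29 log2 units (edgeR adjusted p = 0.00395). Fabp4 went from 134, 127 and 111 CPM to 792, 305 and 224 CPM (1.61 ± 0.47, edgeR adjusted p = 0.0298). The limbs did not overlap for either gene. Pck1 went from 1.62, 1.38 and 3.8 CPM to 12.4, 7.25 and 9.7 CPM (2.16 ± 0.66, edgeR adjusted p = 0.0385), Retn from 0.695, 0.551 and 0.169 CPM to 3.14, 1.56 and 1.19 CPM (2.04 ± 0.66, edgeR adjusted p = 0.0465). Cd36 went from 89.2, 108 and 94.2 CPM to 257, 164 and 132 CPM (0.87 ± 0.23, edgeR adjusted p = 0.0179). Again no immobilized value of these 3 genes fell within the control range. How many of all genes separated in this way was not counted. The lack of overlap between limbs, here and in the other strains, therefore describes the values and adds no support to the tests.

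Elovl6 went the other way in the same mice, from 21.9, 28.4 and 20.8 CPM to 9.96, 14.2 and 18.8 CPM (log2 change of -0.76 ± 0.22, edgeR adjusted p = 0.0324), with no overlap. Cfd read 62.9, 43.2 and 79.1 CPM in control limbs and 650.0, 143 and 216 CPM in immobilized limbs, also without overlap, and did not pass (2.17 ± 0.80, edgeR adjusted p = 0.0822). Adipoq read 59.3, 66.8 and 60.6 against 158, 79.6 and 95.8 CPM and did not pass (edgeR adjusted p = 0.18). These calls rested on all 3 mice: 0, 1 and 3 members passed without mouse 2, 3 and 4. Without the pairing of limbs 3 members passed. Fabp4, Lpl and Retn were also called lower, and Elovl6 higher, in CAST/EiJ control limbs than in the other strains. Those calls and the limb effects share the same 3 control libraries, so they are not independent. In CAST/EiJ immobilized limbs 0 members differed from the other strains, where 18.6% of all genes did.

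Other cell types moved in CAST/EiJ too. The summed CPM of 8 osteoblast markers ran from 9177 to 15986 in control limbs and from 82455 to 185368 in immobilized limbs, with 6 of the 8 higher by test. The 8 marrow stromal markers were higher in 3 of 3 mice by a mean of 0.51 log2 units, the macrophage markers by 0.53 and the endothelial markers by 0.36, and the neutrophil markers were lower in 3 of 3, by a mean of -0.57. The part of these cells in the result was not tested. The muscle list was higher in 2 of 3 mice, and with it as a covariate 10 members passed.

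NOD/ShiLtJ mice had lower levels in the immobilized limb. There 6 members fell (Acsl1, Cd36, Gpd1, Lpin1, Plin4 and Slc2a4) and 0 rose, where 8.33% of all genes passed and 2.78% were lower, with a members' median of -0.49 against -0.03. Slc2a4 read 287, 91.4 and 96.7 CPM in the control limbs of mice 4, 5 and 6 and 20.1, 35.2 and 20.6 CPM in their immobilized limbs (log2 change of -2.48 ± 0.55, edgeR adjusted p = 0.0138). Plin4 went from 145, 34.7 and 52.1 CPM to 9.3, 13.4 and 9.54 CPM (-2.62 ± 0.74, edgeR adjusted p = 0.0382). Neither gene's limbs overlapped.

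Gpd1 went from 145, 47.9 and 77 CPM to 29.6, 31.1 and 17 CPM (log2 change of -1.71 ± 0.44, edgeR adjusted p = 0.0257). Lpin1 went from 99.8, 43.8 and 41.5 CPM to 22.4, 24.3 and 18.1 CPM (-1.41 ± 0.34, edgeR adjusted p = 0.0196). Cd36 went from 194, 104 and 123 CPM to 82.6, 69.9 and 54.6 CPM (-0.99 ± 0.23, edgeR adjusted p = 0.0158). The limbs of these 3 genes, and of Acsl1 (218, 212 and 213 against 119.9, 142 and 96.3 CPM, -0.86 ± 0.22, edgeR adjusted p = 0.0255), did not overlap.

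Plin1 and Scd1 overlapped between NOD/ShiLtJ limbs. Plin1 read 12.3, 3.69 and 7.5 CPM against 9.71, 4.31 and 4.2 CPM, and Scd1 315, 141 and 263 against 299, 205 and 354 CPM. Adipoq did not overlap, at 62.2, 65.8 and 72.1 against 42.8, 47.4 and 51.9 CPM, and did not pass (edgeR adjusted p = 0.447). The summed muscle list ran from 18638 to 83382 CPM in control limbs and from 2671 to 9306 CPM in immobilized limbs, and with it as a covariate 2 members passed (Acsl1 and Slc2a4). The summed osteoblast markers ran from 17460 to 38873 CPM in control limbs and from 57782 to 267192 CPM in immobilized limbs, the neutrophil markers were lower in 3 of 3 mice (mean log2 difference of -0.72), and the part of these cells in the result was not tested. Without mouse 4 or mouse 6, 0 members passed, and without mouse 5, 6 passed. Slc2a4 and Lpin1 were also called higher in NOD/ShiLtJ control limbs than in the other strains, from the same control libraries, so those calls are not independent of the limb effects.

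The single A/J mouse with both limbs had 7 calls, which rest on 1 pair and on the spread of the other strains: 2 members rose (Agpat2 and Dgat1) and 5 fell (Cd36, Gpd1, Pnpla3, Pparg and Thrsp), where 3.99% of all genes passed (2.71% higher and 1.28% lower). Its control limb was high and its immobilized limb low in most members, with Plin1 at 68.6 and 3.65 CPM, Thrsp at 29.7 and 2.09 CPM (log2 change of -3.82 ± 0.97, edgeR adjusted p = 0.0389) and Pparg at 27.1 and 9.39 CPM (-1.53 ± 0.39, edgeR adjusted p = 0.0395). Agpat2 went the other way, from 63.4 to 178 CPM (1.49 ± 0.36, edgeR adjusted p = 0.0336). The immobilized limbs of the other 2 A/J mice read 24.6 and 107 CPM of Plin1, so the low value was that of 1 mouse. The summed muscle list fell from 16613 CPM in that control library to between 509 and 2920 CPM in the A/J immobilized libraries, and with it as a covariate, or without the pairing of limbs, 0 members passed. In the same mouse the mean log2 limb difference was -1.63 for the osteoblast markers, -1.27 for the marrow stromal markers (the lowest of the 22 mice), -0.66 for the macrophage markers and 2.28 for the neutrophil markers, and their part in the result was not tested.

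In 129S1/SvImJ, C57BL/6J, NZO/HlLtJ, PWK/PhJ and WSB/EiJ, 0 members passed by edgeR, where 0% of all genes did in 129S1/SvImJ, 0.00592% each in C57BL/6J, NZO/HlLtJ and WSB/EiJ, and 0.0889% in PWK/PhJ. At an unadjusted p below 0.05 there was 1 member in 129S1/SvImJ, 0 in C57BL/6J, 1 in NZO/HlLtJ, 0 in PWK/PhJ and 1 in WSB/EiJ, and DESeq2 passed none either. Positive log2 changes were found for 31 of 34 members in WSB/EiJ (median 0.30) and 27 in PWK/PhJ (median 0.27), and for 7 in 129S1/SvImJ (median -0.36) and 10 in NZO/HlLtJ (median -0.22).

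Tests of the difference between strains found 3 members whose limb effects were not equal among the 8 strains, where 2.5% of all genes passed: Cd36 (edgeR adjusted p = 0.0151), Lpl (edgeR adjusted p = 0.0348) and Gpd1 (edgeR adjusted p = 0.0473). The effect in CAST/EiJ differed from the mean of the other 7 for 9 members, 8 higher and 1 lower, where 7.94% of all genes passed (5.07% higher and 2.87% lower). The effect in A/J differed for 10 members, 2 higher and 8 lower, where 9.38% passed (4.74% higher and 4.64% lower). The effect in NOD/ShiLtJ differed for 0 members by edgeR, with 12 at an unadjusted p below 0.05 (share of all genes not counted). Its falls were therefore not shown to be particular to that strain. Without the A/J mouse, or any other, the count over all strains ran from 0 to 6.

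Within mice, the members mostly moved together. For each of the 22 mice the log2 difference between limbs was correlated with that of Plin1, a reference picked after its values were seen, and the points share libraries and scaling. The closest was Scd1, with Pearson's r = 0.98 (permutation p = 1e-05, the smallest that 100000 permutations can give) and Spearman's rho = 0.98 (permutation p = 1e-05). Without the 2 mice farthest from the median (A/J 1 and CAST/EiJ 2) r was 0.97, and with each strain's mean removed, over 21 mice, it was 0.97. Next came Pck1 (r = 0.97), Fabp4 (0.95), Aoc3 (0.94), Cidec (0.93), Cfd (0.93), Thrsp (0.91), Lpl (0.90) and Adipoq (0.88), each with a permutation p of 0.00268 after adjustment over all 16881 genes. In all, 14 of 33 members had r above 0.8, against 0.361% of all genes, and 11 did with strain means removed. At an adjusted permutation p below 0.05, 19 members were positive, where 2.91% of all genes were, and 1 was negative, where 2.04% were.

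Acly was the negative member, with r = -0.62 (rho = -0.51, adjusted permutation p = 0.0462), and r was -0.42 without the 2 farthest mice and -0.33 with strain means removed. Elovl6 had r = -0.55 (rho = -0.49, adjusted permutation p = 0.0757) and Agpat2 r = -0.39, and Dgat1, Acsl1, Dgat2 and Acaca had r of -0.31, -0.12, -0.01 and 0.20. For Fasn r was 0.45 and for Lpin1 0.49, and none of these 8 passed.

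Against the limb difference of the muscle list, 2 members were positive at an adjusted permutation p below 0.05, Slc2a4 (r = 0.59, adjusted permutation p = 0.0393) and Cd36 (r = 0.58, adjusted permutation p = 0.0424), where 6.65% of all genes were. Acly was negative (r = -0.77, adjusted permutation p = 0.0041), where 4.57% of all genes were. Adrb3 (r = 0.56), Gpd1 (0.55), Agpat2 (-0.54), Fabp4 (0.51) and Lpl (0.49) did not pass. With strain means removed, r stayed at 0.60 for Slc2a4 and -0.79 for Acly and was 0.43 for Cd36. Plin1 itself had r = 0.33 with the muscle list (permutation p = 0.136).

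**Figure D5:**
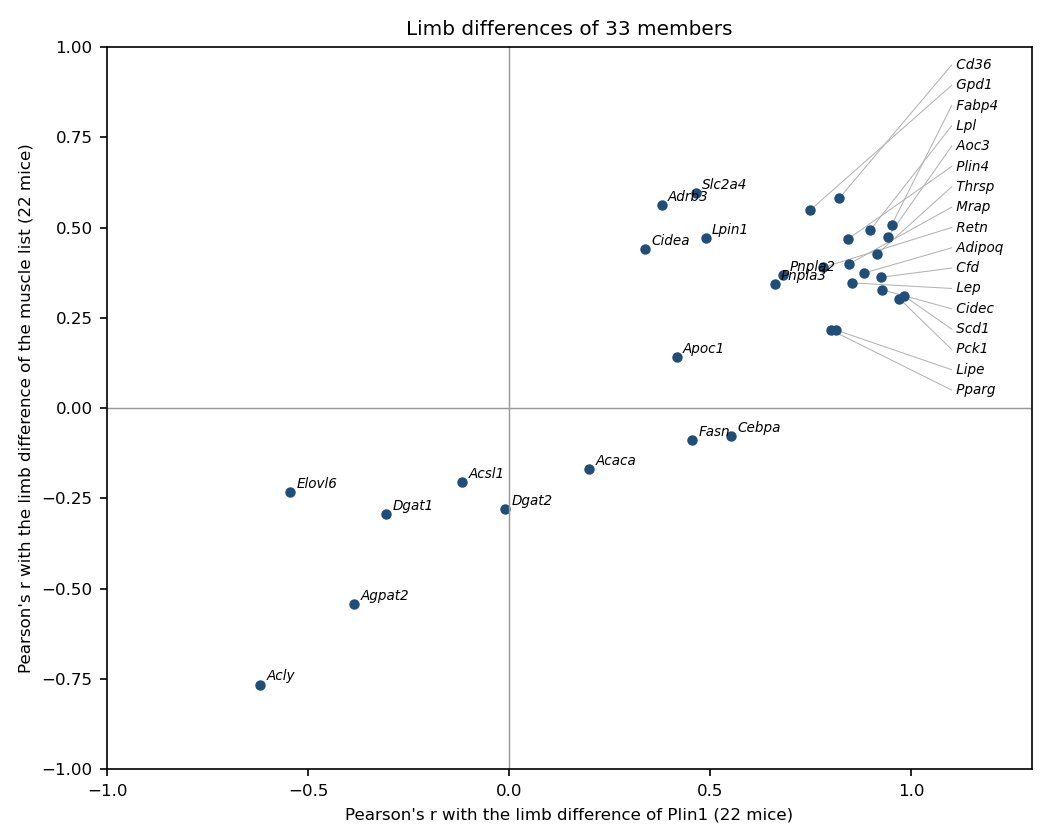
Pearson's r of each member's limb difference (log2 immobilized minus control, 22 mice) with that of Plin1 (horizontal axis) and of the 20 muscle genes (vertical axis), for 33 members. A tight set including Scd1, Pck1 and Fabp4 sits at the right, and Acly and Agpat2 sit at the lower left.

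Other genes of these pathways were read from 4 lists. In the mean limb effect, where 7.43% of all genes passed, 3 of 14 further genes of fatty acid synthesis and its control passed: Insig1, a brake on sterol-regulated lipogenesis, rose by 0.29 ± 0.06 log2 units (edgeR adjusted p = 0.0106), while Acacb, the muscle-type carboxylase, and Mlxipl, the carbohydrate-responsive factor ChREBP, had log2 changes of -0.87 ± 0.19 and -1.09 ± 0.27. Of 13 adipogenic transcription factors, 3 were lower (Ebf1, Zfp467 and Ppargc1a), and of 21 further droplet and storage genes 2 passed (Fitm1 lower, Bscl2 higher). The single A/J mouse weighs as much as any strain in these means. Its log2 changes were -1.80 for Ebf1, -1.39 for Zfp467, -4.79 for Ppargc1a, -4.64 for Fitm1, -2.93 for Acacb and -3.25 for Mlxipl. The fits without that mouse or with the muscle covariate were not read for these genes. In CAST/EiJ limbs, where 13.9% of all genes passed and 8.38% were higher, 4 of 19 uptake genes, adipokines and receptors rose by edgeR and none fell. Among them were Slc27a1, a fatty acid transporter (1.37 ± 0.30 log2 units), Angptl4, an inhibitor of Lpl (1.41 ± 0.32), and Gpihbp1, which anchors Lpl on capillaries (1.70 ± 0.39). From the other lists, Agpat3, Fads2, Me1 and Srebf1 rose in CAST/EiJ. Elovl5 fell there (log2 change of -0.66 ± 0.11, edgeR adjusted p = 0.00112), with the smallest p of these further genes. In NOD/ShiLtJ limbs, where 8.33% of all genes passed and 2.78% were lower, 4 of the 14 synthesis genes passed, 2 higher and 2 lower, with Mlxipl at -3.15 ± 0.67, and 3 of the 21 droplet genes were lower, with Plin5, a droplet protein of muscle and heart, at -2.57 ± 0.73. In WSB/EiJ, Adig, the gene of adipogenin, was higher by 3.24 log2 units in both control (SE 0.64) and immobilized limbs (SE 0.52). Slc25a1, Sncg, Prdm16, Aqp7, Mogat1 and Srebf1 were also higher in control limbs, where 4.2% of all genes were. Aqp7, Tshr, Sncg, Acvr1c, Prdm16 and Insr were also higher in immobilized limbs, where 5.21% of all genes were. Fits without WSB/EiJ mouse 5 were not read for these genes.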

How the data were processed

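RNA was measured in 48 libraries from a stranded mRNA kit read as paired ends, per the labels' protocols. The values are raw read counts per gene as deposited by the authors, and featureCounts, DESeq2 and mm10 appear, without versions, in the submitters' processing notes. Which aligner, annotation and strand setting were used is not stated there. The 35 genes and all lists were chosen with earlier results of these data known. The 2 libraries under 1e+05 counts were left out. Counts were scaled by TMM, filtered by edgeR's filterByExpr and tested with edgeR 4.0.16 (quasi-likelihood, R 4.3.3), adjusted by Benjamini-Hochberg over all genes at 0.05. Limb effects were fitted on 44 libraries with a term for each of 22 mice and a limb term per strain, and strains were compared within each limb. Pairing comes from the design, since both limbs belong to the same mouse. Over 21 mice, deviations of paired limbs correlated with a median r of 0.0891 (from -0.26 to 0.548), above 0.1 in 10. DESeq2 1.42.0, relative log size factors, no filter, all 48 libraries, no pairing, and each mouse left out were tried, and a muscle covariate was added after seeing the data. The muscle level differed between strains and between limbs, so calls lost or kept with that covariate cannot be assigned to muscle. On simulated data for the mean limb effect (16882 genes), 77 of 100 genes changed 2-fold and 93 of 100 changed 4-fold were recovered, and 11 unchanged genes were called. The simulation gave every strain the same change and had no mouse effect. Effects in single strains were not simulated, so it does not give the share recovered there. Genes printed with full values were the members called in a limb effect, the defining fat cell genes, and the 8 members with the smallest p among strains in control limbs. Limb differences were correlated over 22 mice with 100000 permutations, adjusted over all genes. Plus or minus values are standard errors.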

Additional observations from a re-analysis of the deposited data

Results flagged for a closer look

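The limb effect of the single A/J mouse differed from the mean of the other strains, by edgeR's test of the difference, for 10 members, where 9.38% of all genes passed. The log2 difference was 1.49 for Agpat2 and 1.22 for Dgat1, and -2.19 for Cd36, -3.28 for Gpd1, -2.08 for Lpl, -5.21 for Pck1, -3.12 for Pnpla3, -1.43 for Pparg, -4.37 for Scd1 and -3.89 for Thrsp. The effect in CAST/EiJ differed for 9 members, where 7.94% of all genes passed: 1.36 for Cd36, -0.92 for Elovl6, 1.86 for Fabp4, 1.65 for Lpl, 3.09 for Pck1, 2.91 for Plin1, 0.78 for Pparg, 2.45 for Retn and 2.61 for Scd1. Over all strains together, the limb effects differed for Cd36 (edgeR adjusted p = 0.0151), Gpd1 (edgeR adjusted p = 0.0473) and Lpl (edgeR adjusted p = 0.0348). The A/J mouse enters the mean against which CAST/EiJ was set, so these tests share libraries.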

How the results depend on the processing

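Of 131 calls of a member in a comparison, 19 held under every alternative that gave a value and none changed direction. Counts of members called moved with the pairing of limbs, DESeq2, the libraries used, the filter on low counts, the muscle covariate and single mice, and the cause was not tested. The share of all genes passing under each alternative is not given here. A change in a count, here or with mice left out, may therefore not be particular to the members. Without the pairing (no replicate block), 1 member passed in the mean limb effect (2 with it), 0 in A/J (7), 3 in CAST/EiJ (8) and 0 among limb effects (3), and 0 in A/J (10) and 4 in CAST/EiJ (9) against the other strains. With DESeq2 the counts were 4 in the mean limb effect, 17 in A/J, 15 among limb effects, and 20 in A/J, 17 in CAST/EiJ and 5 in NOD/ShiLtJ against the other strains' limb effects. In control limbs DESeq2 gave 12 in C57BL/6J, 15 in CAST/EiJ, 4 in NOD/ShiLtJ, 1 in NZO/HlLtJ and 3 in PWK/PhJ, and in immobilized limbs 8 in C57BL/6J and 5 in NZO/HlLtJ. With all 48 libraries the counts were 1 in the mean limb effect, 5 in CAST/EiJ, 0 among limb effects, 5 in CAST/EiJ against the others and 6 in C57BL/6J control limbs. Without the filter on low counts they were 1 in A/J limbs, 3 in CAST/EiJ limbs, 5 in CAST/EiJ against the others, and 1 in C57BL/6J and 9 in NOD/ShiLtJ immobilized limbs. With the muscle covariate they were 0 in the mean limb effect, 0 in A/J, 2 in NOD/ShiLtJ, 1 among limb effects, 1 in A/J and 3 in CAST/EiJ against the others. In control limbs it gave 0 in 129S1/SvImJ, C57BL/6J, NOD/ShiLtJ and PWK/PhJ, 3 in CAST/EiJ and 5 in WSB/EiJ, and 0 in 129S1/SvImJ immobilized limbs.

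With each mouse left out in turn, the counts ran from 0 to 5 in the mean limb effect, 0 to 3 in CAST/EiJ, 0 to 6 in NOD/ShiLtJ, 0 to 6 among limb effects and 1 to 3 in CAST/EiJ against the others. In control limbs they ran from 0 to 19 in 129S1/SvImJ, 0 to 2 in C57BL/6J, 2 to 3 in CAST/EiJ, 0 to 2 in NOD/ShiLtJ, 0 to 1 in PWK/PhJ and 3 to 20 in WSB/EiJ. In immobilized limbs they ran from 0 to 3 in 129S1/SvImJ, 2 to 9 in A/J, 1 to 1 in C57BL/6J, 1 to 6 in NOD/ShiLtJ, 0 to 1 in NZO/HlLtJ, 1 to 4 in PWK/PhJ and 11 to 23 in WSB/EiJ. Uncalled mean limb effects near 0 changed sign. Without A/J mouse 1 they were 0.12 for Adipoq, 0.40 for Cfd, 0.11 for Cidec, 0.30 for Fabp4, 0.41 for Plin1 and 0.26 for Retn. With all 48 libraries they were 0.18 for Cfd and 0.23 for Fabp4, and with the muscle covariate and replicate block 0.041 for Cfd, 0.17 for Fabp4 and 0.089 for Retn. With 1 mouse left out at a time, the lowest and highest were -0.22 and 0.12 for Adipoq, -0.20 and 0.40 for Cfd, -0.52 and 0.11 for Cidec, -0.13 and 0.30 for Fabp4, -0.30 and 0.41 for Plin1, and -0.21 and 0.26 for Retn. Without WSB/EiJ mouse 5 the uncalled control differences became -0.77 for Lep and -0.33 for Pparg, against 2.87 and 0.56 without mouse 4. Groups of 3 mice and totals from 5253408 counts limit what could be detected.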
